A study of Cricetulus griseus with 6 samples.

Results

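The genes of cholesterol and fatty acid synthesis were examined in Chinese hamster ovary (CHO) cells that do or do not express human HER2. Of 40 listed gene symbols, 28 stood alone on at least 1 transcript cluster of the array and were measured, out of 14899 genes measured in this way. Where a gene had several clusters, the cluster of highest average signal was taken. The 28 were 4 regulators of sterol sensing, 14 enzymes of sterol synthesis, 2 sterol transport genes and 8 genes of fatty acid synthesis. The clusters of Srebf2, Sc5d and Elovl1 carried other symbols as well and were not used. The remaining 9 symbols (Cyp51a1, Cyp51, Nsdhl, Stard4, Scd, Scd1, Scd2, Elovl6 and Fads1) matched no cluster and were not analysed here.

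Animal cells build cholesterol from acetyl-CoA through mevalonate, farnesyl units, squalene and lanosterol, and they build fatty acids from acetyl-CoA and malonyl-CoA. Transcription of both branches is controlled by the SREBP factors, which the sensor SCAP escorts out of the endoplasmic reticulum when sterols are low and which the INSIG proteins hold back when sterols are high. SREBP-2 acts mainly on the sterol branch and SREBP-1 mainly on the fatty acid branch. When sterols are plentiful, the liver X receptors raise export genes such as Abca1.

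The 6 arrays were of CHO-K6, a CHO line stably overexpressing human HER2, treated with trastuzumab + pertuzumab, with pertuzumab, with trastuzumab or left untreated, and of parental wild-type CHO-K1 treated with trastuzumab + pertuzumab or left untreated. Trastuzumab and pertuzumab are antibodies against HER2 and were given at 10 µg/mL for 24 h in 10% serum, after the cells of every group had been kept in 1% serum for 24 h. CHO-K6 was 1 clone, kept under G418 selection, so HER2, the clone and the selection cannot be told apart in a difference between the lines. Each condition had 1 array, so no difference could be set against a spread between replicates and no test was made. A single antibody in CHO-K1 was not analysed here. All values are log2 signals normalized by the authors or differences between them, and signals of different genes were not compared.

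The median log2 signal was 5.89 to 5.91 on the 6 arrays. Erbb2 had log2 signals of 8.80 to 9.21 on the 4 CHO-K6 arrays and of 8.50 and 8.64 on the CHO-K1 arrays, and how much of the signal on this hamster array came from the human transcript was not tested. The cells are labelled as epithelial. Among epithelial markers 4 were measured, and 0 reached 6 on the log2 scale on every array. Cdh1 passed 6 on some arrays (5.86 to 6.49), and Krt8, Krt18 and Epcam lay between 3.98 and 4.99. Among mesenchymal markers 5 were measured. Vim, Fn1 and S100a4 reached 6 on every array, and Cdh2 (5.09 to 5.40) and Col1a1 (5.78 to 6.12) did not. Only Fshr was measured among 4 granulosa cell markers, with signals of 5.10 to 5.41. In RNA from whole cultures, less RNA per cell and fewer expressing cells cannot be told apart. Of the 28 genes, 26 had a mean log2 signal of 6 or more, and Srebf1 and Fads2 lay below it, at 5.97 and 4.68.

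None of the 28 genes differed 2-fold in any of the 7 comparisons. Over all genes, 1.75% differed 2-fold between the untreated lines and 2.45% between the lines given the combination. Against untreated CHO-K6 the share was 0.0537% with the combination, 0.141% with pertuzumab and 0.0336% with trastuzumab, pertuzumab against trastuzumab gave 0.148%, and the combination in CHO-K1 gave 0.094%. Counts were therefore made at a lower limit, a difference of more than 0.32 on the log2 scale, called the limit hereafter. Where any of the 28 genes was past it, the share of all genes is followed by that of the 9095 brighter genes, those with a mean signal of 6 or more. The heatmap of centred signals gives every gene on every array.

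**Figure D1:**
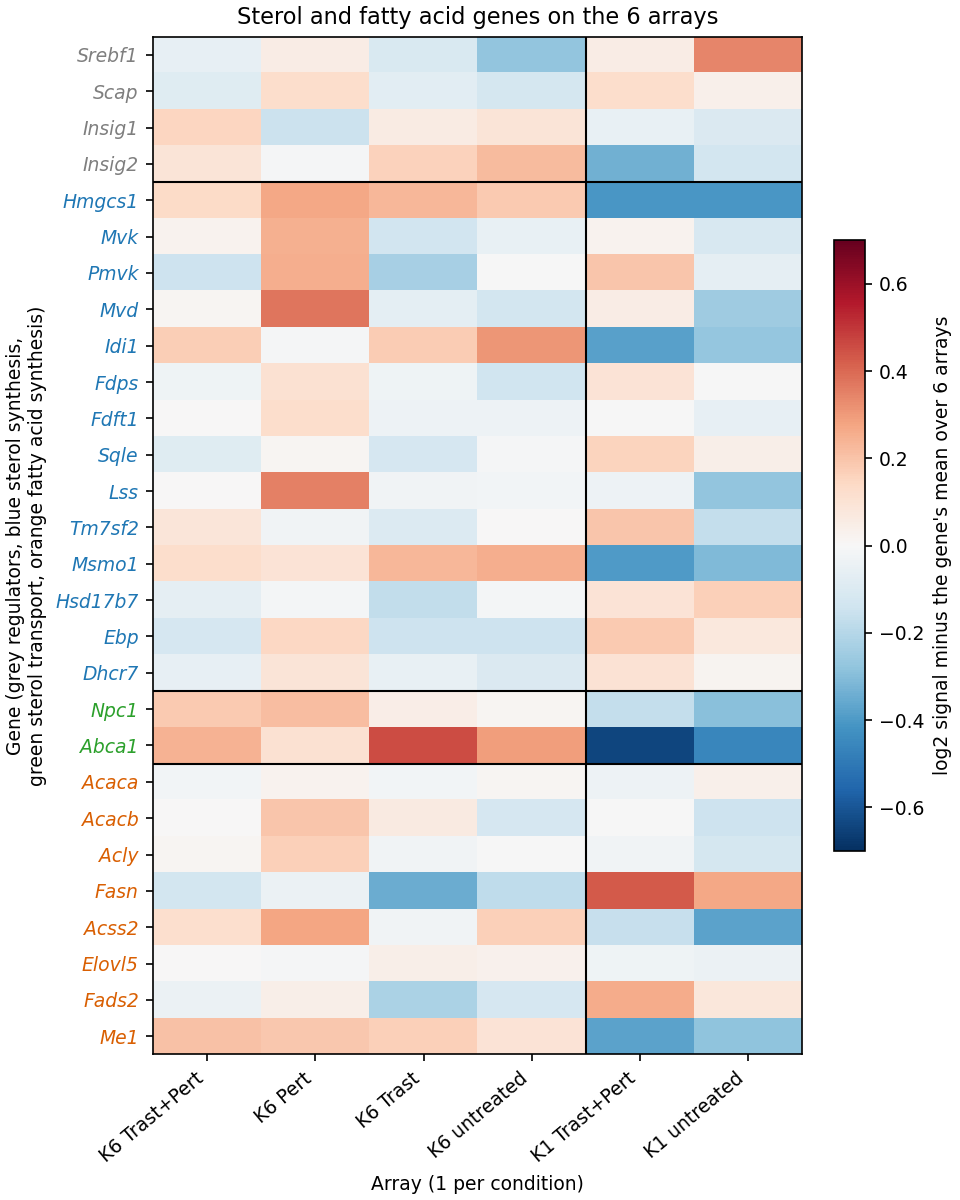
Log2 signal of each of the 28 genes (rows, by branch) on the 6 arrays (columns), minus the mean of that gene over the 6 arrays. Hmgcs1, Idi1, Msmo1, Abca1 and Me1 are higher on all 4 CHO-K6 arrays than on both CHO-K1 arrays, Fasn is lower, and Mvd and Lss are highest on the pertuzumab array.

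The first question was how the HER2 line differed from its parent. Without antibody, 7 of the 28 genes (25%) were past the limit higher in CHO-K6 than in CHO-K1, where 12.6% of all genes and 16% of brighter genes were, and 2 (7.14%) were lower, where 16.7% and 15.7% were. The higher genes came from every branch: the cholesterol exporter Abca1, the sterol enzymes Hmgcs1, Idi1 and Msmo1, the acetyl-CoA synthetase Acss2, the malic enzyme Me1 and the SREBP anchor Insig2. The lower genes were Srebf1 and fatty acid synthase, Fasn. The branches differed from each other by 0.01, with a median log2 difference of 0.06 over the 14 sterol enzymes and 0.05 over the 8 fatty acid genes, beside −0.04 over all genes and −0.01 over brighter genes.

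Of the 14 sterol enzymes, Hmgcs1, Idi1 and Msmo1 were past the limit, all higher. Hmgcs1, the synthase that makes HMG-CoA at the entry of the mevalonate pathway, had log2 signals of 10.53 with trastuzumab + pertuzumab, 10.67 with pertuzumab, 10.63 with trastuzumab and 10.58 untreated in CHO-K6, against 9.99 on both CHO-K1 arrays. The CHO-K6 arrays lay at least 0.54 above CHO-K1 and within 0.14 of each other. Idi1, which isomerizes isopentenyl diphosphate, had 9.26 with trastuzumab + pertuzumab, 9.08 with pertuzumab, 9.27 with trastuzumab and 9.40 untreated in CHO-K6, against 8.71 with trastuzumab + pertuzumab and 8.82 untreated in CHO-K1. Msmo1, which removes methyl groups from lanosterol products, had 10.97, 10.94, 11.08 and 11.10 on the CHO-K6 arrays in the same order, against 10.45 and 10.54 on the CHO-K1 arrays. For both genes all CHO-K6 arrays lay above CHO-K1, and the pertuzumab array was the lowest of the CHO-K6 arrays. In the untreated cells the differences were 0.59 for Hmgcs1, 0.58 for Idi1 and 0.56 for Msmo1, which is 1.51-fold, 1.49-fold and 1.47-fold. As much higher or more were 4.32%, 4.46% and 4.87% of all genes and 5.73%, 5.95% and 6.53% of brighter genes.

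The other 11 sterol enzymes lay within the limit in untreated cells, between −0.22 for the isomerase Ebp and 0.26 for the lanosterol synthase Lss. Ebp had signals of 9.63 with trastuzumab + pertuzumab, 9.89 with pertuzumab, 9.60 with trastuzumab and 9.60 untreated in CHO-K6, against 9.93 with trastuzumab + pertuzumab and 9.82 untreated in CHO-K1. The pertuzumab array thus lay between the CHO-K1 arrays, and the other CHO-K6 arrays below both. Farnesyl-diphosphate farnesyltransferase, Fdft1, which stands at the branch into squalene, differed by 0.02, and squalene epoxidase, Sqle, by −0.05.

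The sterol exporter Abca1, a target of the liver X receptors, had the largest gain of the 28 genes. Its signals were 10.70 with trastuzumab + pertuzumab, 10.56 with pertuzumab, 10.91 with trastuzumab and 10.75 untreated in CHO-K6, against 9.81 with trastuzumab + pertuzumab and 10.00 untreated in CHO-K1. The untreated lines differed by 0.75, or 1.68-fold, and 2.36% of all genes and 3.02% of brighter genes were as much higher or more. A second Abca1 cluster of lower signal differed by 0.65, and by 0.66 with the combination. Npc1, which moves cholesterol out of lysosomes, differed by 0.31, just inside the limit, while Insig2 at 0.35 lay just past it.

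Fatty acid genes went both ways. Fasn, which assembles palmitate, had signals of 9.80 with trastuzumab + pertuzumab, 9.89 with pertuzumab, 9.58 with trastuzumab and 9.75 untreated in CHO-K6, against 10.36 with trastuzumab + pertuzumab and 10.20 untreated in CHO-K1. All CHO-K6 arrays were below both CHO-K1 arrays, and the untreated lines differed by −0.45. Acss2, which makes acetyl-CoA from acetate, differed by 0.54, and Me1, a cytosolic source of NADPH, by 0.38. The carboxylase genes Acaca and Acacb, which make malonyl-CoA, differed by −0.02 and 0.03, and the citrate lyase gene Acly by 0.12. Among desaturation and elongation genes, Fads2 differed by −0.20 and Elovl5 by 0.07.

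The regulators had no common direction. Srebf1, the gene of SREBP-1, had signals of 5.91 with trastuzumab + pertuzumab, 6.02 with pertuzumab, 5.86 with trastuzumab and 5.69 untreated in CHO-K6, against 6.02 with trastuzumab + pertuzumab and 6.31 untreated in CHO-K1. The untreated lines differed by −0.62, but the pertuzumab array of CHO-K6 and the treated array of CHO-K1 had the same value. Scap had 10.01, 10.22, 10.02 and 9.97 on the CHO-K6 arrays in the order above, against 10.22 treated and 10.13 untreated in CHO-K1. Insig1 had 6.52, 6.22, 6.43 and 6.46 in CHO-K6, against 6.32 treated and 6.27 untreated in CHO-K1. Insig2 had 9.77, 9.67, 9.84 and 9.90 in CHO-K6, against 9.34 treated and 9.55 untreated in CHO-K1, and was the regulator whose lines did not overlap.

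The arrays with trastuzumab + pertuzumab gave a second comparison of the lines that shares no array with the first. There too, 7 genes (25%) were past the limit higher in CHO-K6, beside 14.4% of all genes and 19.7% of brighter genes, and 2 (7.14%) were lower, beside 18.7% and 18.2%. Hmgcs1 (0.54), Idi1 (0.55), Msmo1 (0.52), Abca1 (0.89), Me1 (0.58) and Insig2 (0.43) were past the limit in both comparisons, and Fasn (−0.56) was lower in both. Acss2 was at 0.28, within the limit, and Npc1 at 0.35, past it. Srebf1 differed by −0.11, and Pmvk, the phosphomevalonate kinase, by −0.34 beside 0.06 in the untreated cells. Across the 28 genes, which are not independent replicates, the 2 line differences had a Pearson's r of 0.875, and across the brighter genes an r of 0.898. Their sign was the same for 23 of the 28 genes, beside 73.2% of all genes and 82.3% of brighter genes. The sterol median was −0.075 and the fatty acid median 0.025, beside −0.06 over all genes.

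**Figure D2:**
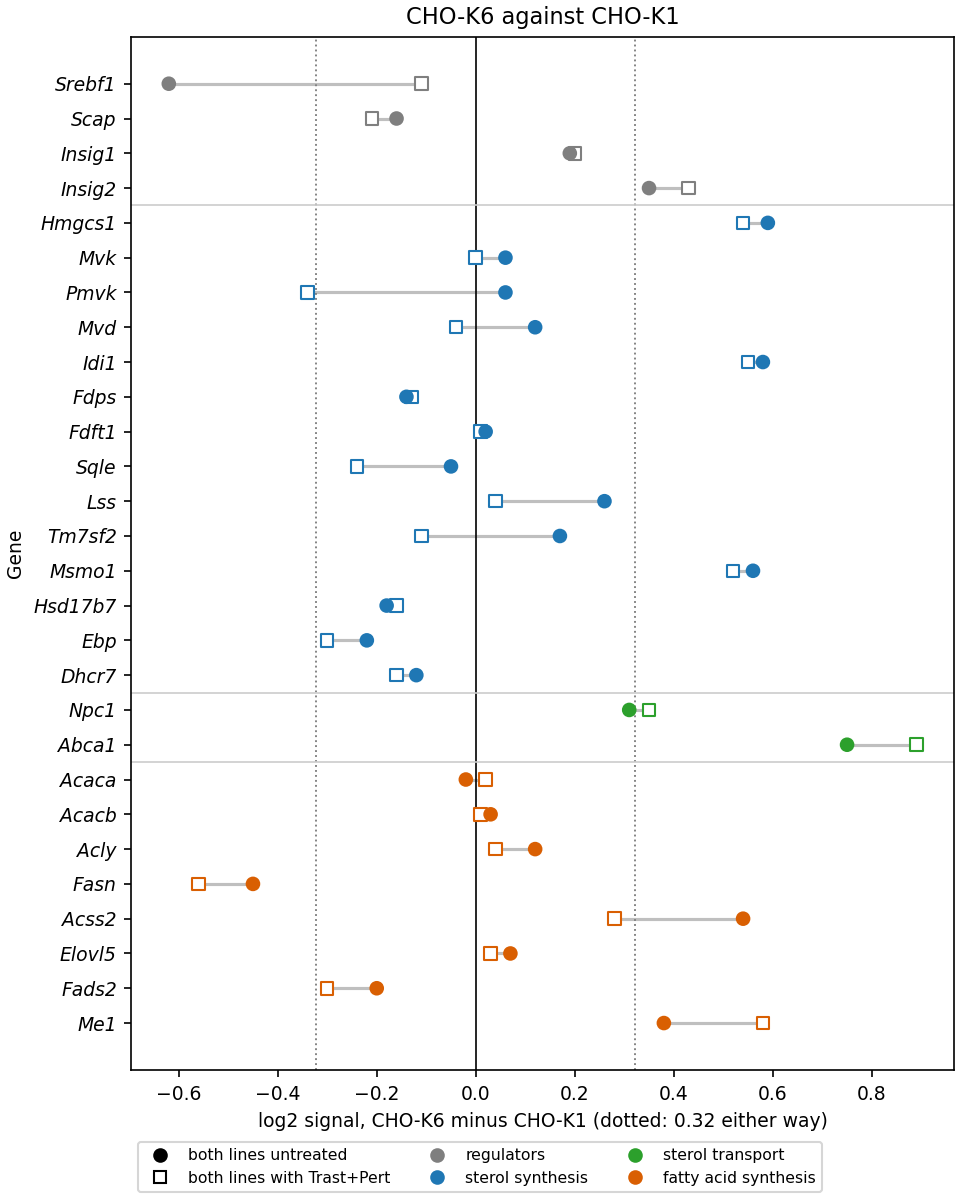
Difference in log2 signal between CHO-K6 and CHO-K1 (x axis) for each of the 28 genes, with both lines untreated (filled circles) and both given trastuzumab + pertuzumab (open squares). Dotted lines mark 0.32 either way. Hmgcs1, Idi1, Msmo1 and Abca1 stay between 0.52 and 0.89 in both, while Srebf1 lies at −0.62 and −0.11.

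On all 4 CHO-K6 arrays, 10 of the 28 genes (35.7%) were higher than on both CHO-K1 arrays, beside 17.5% of all genes and 25.3% of brighter genes. These were Insig2, Hmgcs1, Idi1, Lss, Msmo1, Npc1, Abca1, Acss2, Elovl5 and Me1, and the gap between the lines was at most 0.02 for Lss and Elovl5. Another 4 genes (14.3%), Sqle, Hsd17b7, Fasn and Fads2, were lower on all CHO-K6 arrays, beside 24.1% of all genes and 26.1% of brighter genes. Among these, the gap between the lines was −0.03 for Sqle, −0.04 for the dim Fads2, −0.11 for Hsd17b7 and −0.31 for Fasn. Leaving out the pertuzumab array, a choice made after seeing the data, raised the lower genes to 9, with Srebf1, Scap, Fdps, Ebp and Dhcr7 added, while 11 were higher. Over all genes, 33.3% were then lower and 22.7% higher.

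The next question was what each antibody did in CHO-K6, where all antibody arrays were set against the same untreated array. With pertuzumab, both branches stood slightly above untreated CHO-K6, with 20 of the 28 genes above 0 (71.4%, beside 58.6% of all genes), 7 below and 1 at 0. The median log2 difference was 0.175 over the sterol enzymes and 0.125 over the fatty acid genes, beside 0.06 over all genes and also over brighter genes. Past the limit were 3 genes (10.7%), Mvd, Lss and Srebf1, all higher, where 11% of all genes and 10.3% of brighter genes were higher, and none was lower, where 8.26% and 9.04% were. The count past the limit was thus near that of all genes.

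Mvd, the decarboxylase that ends the mevalonate steps, had the largest pertuzumab difference among the 28 genes. Its signals were 8.47 with trastuzumab + pertuzumab, 8.83 with pertuzumab, 8.39 with trastuzumab and 8.33 untreated in CHO-K6, against 8.51 with trastuzumab + pertuzumab and 8.21 untreated in CHO-K1. The pertuzumab array alone stood out, 0.50 above untreated CHO-K6, or 1.41-fold. As much higher or more were 2.27% of all genes and 1.36% of brighter genes. Lss, which closes the sterol rings, had 10.06, 10.41, 10.03 and 10.04 on the CHO-K6 arrays in the same order, against 10.02 treated and 9.78 untreated in CHO-K1. Its pertuzumab difference was 0.37. The kinases Mvk (0.30) and Pmvk (0.26), Ebp (0.29), the farnesyl diphosphate synthase gene Fdps (0.25), the reductase Dhcr7 (0.19) and Fdft1 (0.16) were higher within the limit.

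Among the sterol enzymes, 10 of 14 were above untreated CHO-K6 with pertuzumab, Hsd17b7, a sterol ketoreductase, was at 0, and Idi1 (−0.32), Msmo1 (−0.16) and Tm7sf2 (−0.03) were below. Idi1 lay at the limit and not past it, and 8.83% of all genes and 9.59% of brighter genes were as much lower or more. Idi1 and Msmo1 were among the 3 sterol enzymes higher in the HER2 line, and Hmgcs1, the other of these, was at 0.09. Because the line and pertuzumab differences both use the untreated CHO-K6 array, these values are only set side by side. The anchors Insig1 (−0.24) and Insig2 (−0.23) were also lower with pertuzumab, and Scap (0.25) was higher. In the fatty acid branch, 7 of 8 genes were above 0 and all within the limit, from −0.04 for Elovl5 to 0.31 for Acacb. Acacb had 6.20 with trastuzumab + pertuzumab, 6.39 with pertuzumab, 6.26 with trastuzumab and 6.08 untreated in CHO-K6, against 6.19 treated and 6.05 untreated in CHO-K1, so that its untreated arrays were the lowest of each line.

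On the pertuzumab array, 19 of the 28 genes (67.9%) had their highest signal within CHO-K6, beside 42.8% of all genes and 47.7% of brighter genes. By branch, this was so for 10 of the 14 sterol enzymes and 6 of the 8 fatty acid genes.

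With trastuzumab, no gene was past the limit, where 3.06% of all genes were higher and 3.19% lower. The median difference was −0.015 over the sterol enzymes and −0.025 over the fatty acid genes, beside 0.01 over all genes. The lowest value was that of Pmvk (−0.23) and the highest that of Acacb (0.18). Pmvk had signals of 8.01 with trastuzumab + pertuzumab, 8.41 with pertuzumab, 7.92 with trastuzumab and 8.15 untreated in CHO-K6, against 8.35 treated and 8.09 untreated in CHO-K1. The single antibodies lay on opposite sides of the untreated array for this kinase.

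Set directly against trastuzumab, pertuzumab gave higher signals for 22 of the 28 genes (78.6%, beside 58% of all genes). In this comparison 4 genes (14.3%), the sterol enzymes Pmvk (0.49), Mvd (0.44), Mvk (0.38) and Lss (0.38), were past the limit higher, beside 9.31% of all genes and 7.42% of brighter genes, and Abca1 (−0.35) was lower, beside 8.13% and 9.68%. The second Abca1 cluster differed by −0.10 here. The medians of the branches were alike, at 0.15 for sterol and 0.16 for fatty acid genes, beside 0.05 over all genes. Mvk, Pmvk, Mvd and Lss thus lay apart between the antibodies by 0.38 to 0.49, and the design has no replicate to set this against.

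With trastuzumab + pertuzumab in CHO-K6, no gene was past the limit, where 3.34% of all genes were higher and 3.09% lower. Values ran from −0.14, for Pmvk and Idi1, to 0.22, for Srebf1, with a sterol median of 0.025 and a fatty acid median of 0.035, beside 0.01 over all genes. Against the pertuzumab array, the combination array was lower for 11 of 14 sterol enzymes and 6 of 8 fatty acid genes, where 57.5% of all genes were lower. The largest of these differences were those of Pmvk (−0.40), Mvd (−0.36) and Lss (−0.35), for which the pertuzumab array was the highest of the CHO-K6 arrays. Against the trastuzumab array the combination differed by −0.21 for Abca1 to 0.22 for Fasn.

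**Figure D3:**
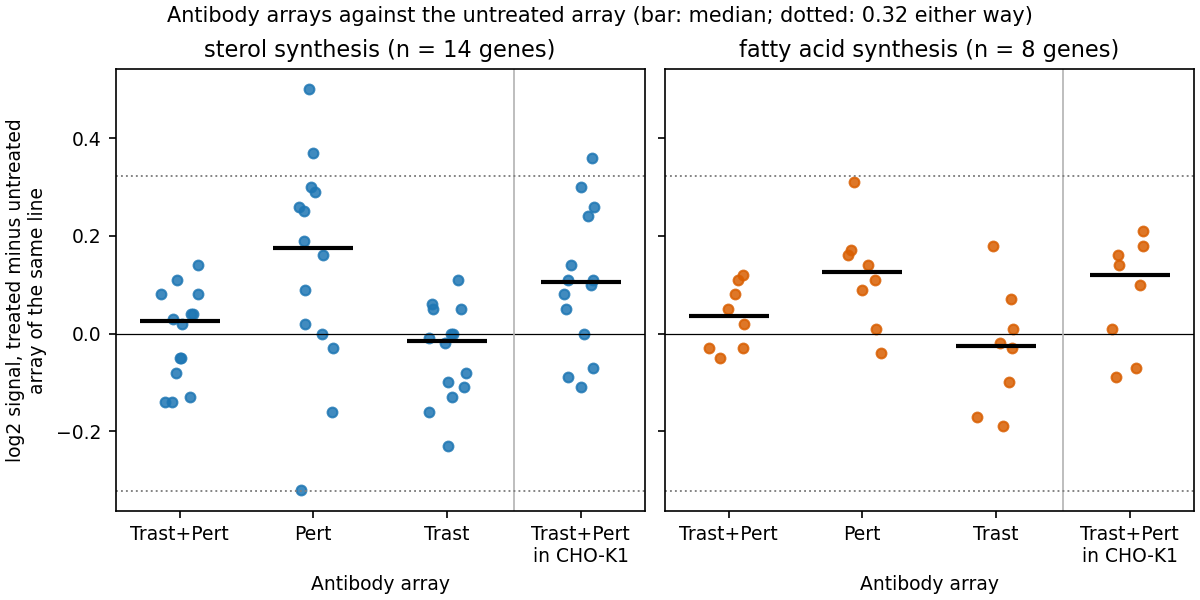
Difference in log2 signal between each antibody-treated array and the untreated array of the same line (y axis) for the 14 sterol enzymes (left) and the 8 fatty acid genes (right), with the median as a bar and 0.32 either way as dotted lines. Sterol medians are 0.025, 0.175 and −0.015 with the combination, pertuzumab and trastuzumab in CHO-K6, and 0.105 with the combination in CHO-K1.

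The same combination was also given to CHO-K1, which does not carry the human HER2 transgene. There the sterol median was 0.105 and the fatty acid median 0.12, beside 0.02 over all genes, and 19 of the 28 genes (67.9%) were above 0, beside 53.1% of all genes. Tm7sf2, a sterol reductase, was the single gene past the limit (3.57%, beside 6.39% of all genes and 3.24% of brighter genes higher), and none was lower, where 6.5% and 5.72% were. Its signals were 6.10 with trastuzumab + pertuzumab, 5.99 with pertuzumab, 5.92 with trastuzumab and 6.02 untreated in CHO-K6, against 6.21 treated and 5.85 untreated in CHO-K1. The treated CHO-K1 array was thus the highest and the untreated one the lowest. Mvd (0.30), Pmvk (0.26), Lss (0.24) and Acss2 (0.21) followed, and Srebf1 (−0.29), Insig2 (−0.21), Abca1 (−0.19) and Idi1 (−0.11) were lowest. The second Abca1 cluster differed by −0.02 here.

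The responses of CHO-K6 to pertuzumab and of CHO-K1 to the combination come from 4 separate arrays, and they ran in the same direction for 20 of the 28 genes and 11 of the 14 sterol enzymes. Over all genes the direction was shared by 65.2%, and over brighter genes by 75.2%, so that the 20 of 28 were near the share of all brighter genes. Pearson's r was 0.508 across the 28 genes, 0.641 across the sterol enzymes and 0.664 across the brighter genes. Genes are not independent replicates, and all pairs share the same 4 arrays. Mvd, Lss and Pmvk were higher and Idi1, Msmo1 and Insig2 lower in both, whereas Srebf1 was higher in one and lower in the other. The part of this array-wide movement in the pertuzumab values of the sterol genes was not tested.

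**Figure D4:**
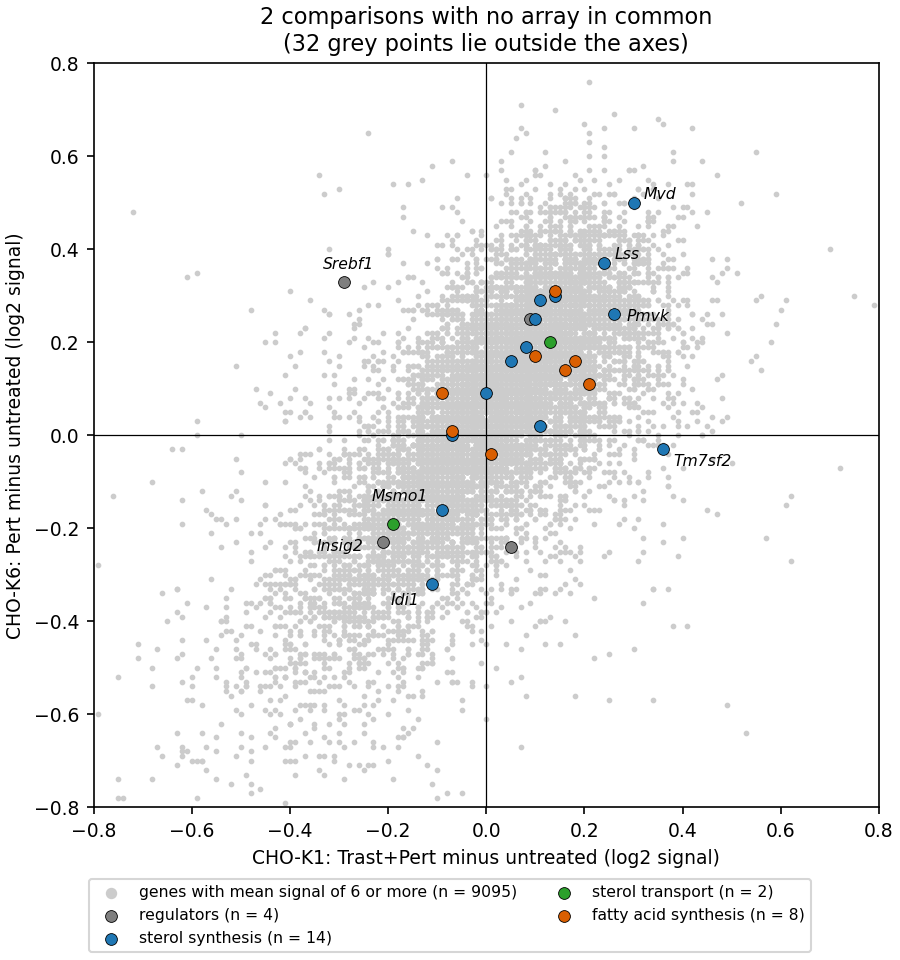
Log2 difference with pertuzumab in CHO-K6 (y axis) against the log2 difference with trastuzumab + pertuzumab in CHO-K1 (x axis), for the 28 genes by branch and for the 9095 brighter genes (grey). The 28 genes lie among the grey points (r of 0.508 and 0.664), with Mvd at 0.30 and 0.50, Srebf1 at −0.29 and 0.33 and Tm7sf2 at 0.36 and −0.03 (x and y). The axes end at 0.8 either way, and 32 grey points lie outside them.

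The lines were also compared in their response to the combination, as the CHO-K6 difference minus the CHO-K1 difference. This value was below 0 for 12 of 14 sterol enzymes, with a median of −0.055, and for 6 of 8 fatty acid genes, with a median of −0.06, beside a median of 0 over all genes, of which 49.4% were below 0. Srebf1 (0.51) was past the limit higher, beside 9.25% of all genes and 5.94% of brighter genes, and Pmvk (−0.40) lower, beside 9.12% and 3.84%. With 1 array in each of the 4 conditions this difference has no error.

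Outside these 28 genes, 66 other genes of lipid metabolism were listed and 52 measured. Between the untreated lines, 7 of these (13.5%, beside 12.6% of all genes) were past the limit higher in CHO-K6 and 5 (9.62%, beside 16.7%) lower, so that the higher count was near the share of all genes. The largest difference was that of Soat1, which esterifies cholesterol for storage, at −1.14, and it was −1.17 between the lines with the combination. The acyl-CoA synthetase genes Acsl1 (0.69), Acsl3 (0.60) and Acsl4 (0.46) and the phosphatidate phosphatase gene Lpin2 (0.66) were higher, as was the sterol exporter gene Abcg1 (0.46). Tmem97, which binds NPC1, was lower (−0.57), as was the HDL receptor gene Scarb1 (−0.45). The other lower genes were Npc2 (−0.37), which binds cholesterol in lysosomes, and the mitochondrial citrate carrier gene Slc25a1 (−0.36). The combination arrays of the lines gave 0.58, 0.68 and 0.87 for the synthetases in the same order, 0.51 for Lpin2, 0.78 for Abcg1, −0.61 for Tmem97 and −0.51 for Scarb1. With pertuzumab, 6 of the 52 (11.5%, beside 11% of all genes) were past the limit higher, again near that share, and Acsl4 (−0.35) was lower (1.92%, beside 8.26%). The liver X receptor genes Nr1h2 (0.42) and Nr1h3 (0.35) were among the higher ones. Genes that these receptors control went both ways. Abca1 (−0.19) and Abcg1 (−0.15) lay below untreated CHO-K6 within the limit, while Srebf1 (0.33) and Mylip (0.06) lay above. The second Abca1 cluster lay at 0.06. Abcg1 was dim, with signals of 5.49 with pertuzumab and 5.64 untreated, as was Mylip, with 4.89 and 4.83.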

How the data were processed

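Per the labels and the methods, the authors analysed Affymetrix CHO Gene ST arrays of total RNA with the Transcriptome Analysis Console, and the submitters' processing notes also name the Affymetrix Expression Console. The normalization method and the genome build are not given in the sources used here. The authors deposited log2 signals per transcript cluster, which were used as they are. The log2 table holds 29700 clusters. The series matrix table holds 1234 more and differs by at most 0.005 on the shared ones. Gene symbols came from the platform annotation, which gives 1 symbol to 16481 clusters, several to 793 and none to 12426. Of the 28 genes, 27 matched a RefSeq gene by identifier, and Acaca did not. Precision is limited by 1 array per condition, so only differences, medians and counts are given.

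The genes, lists and comparisons were chosen with earlier results of these data known. Genes given on all arrays were the regulators and those with the largest differences: 3 each way for the HER2 line, for pertuzumab in CHO-K6 and for the combination in CHO-K1, and 1 each way otherwise. Msmo1 was added after its values were seen. Of the other lipid genes, 8 with the largest differences were to be named, and Npc2, Slc25a1, Nr1h2, Nr1h3 and Mylip were added after their values were seen. Alternatives were quantile normalization, a mean signal of 6 or more, the mean of all clusters of a gene, the series matrix table, means for medians, a 1.5-fold limit and another reference for the antibody arrays. Promoter sequences were not analysed here. The calculations were tested on simulated data with Python 3.11.15, NumPy 2.4.6 and pandas 2.3.3.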

Additional observations from a re-analysis of the deposited data

Results flagged for a closer look

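For 6 of the 28 genes, the combination of trastuzumab and pertuzumab went with opposite signs in the lines (21.4%, beside 40.1% of all genes and 34.8% of brighter genes), and for 2 of them by 0.1 or more on the log2 scale on both sides (7.14%, beside 13% and 6.77%). Srebf1 differed from the untreated array by 0.22 in CHO-K6 and by −0.29 in CHO-K1. Pmvk differed by −0.14 in CHO-K6 and by 0.26 in CHO-K1. Both are given because the single combination array of each line moved the opposite way, and neither share was above that of all genes. With pertuzumab in CHO-K6, Pmvk differed by 0.26, in the direction of the combination in CHO-K1. The difference between the lines was not tested, since each condition had 1 array.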

How the results depend on the processing

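Counts of genes past the limit depended most on the limit itself. At 1.5-fold, 2 genes were higher and 1 lower in CHO-K6 than in CHO-K1 without antibody (7 and 2 at the limit used), and 0 were higher with pertuzumab in CHO-K6 (3) or with the combination in CHO-K1 (1). Keeping only the brighter genes left 1 lower gene between the untreated lines, and 2 higher genes with pertuzumab, since Srebf1 drops out of both. Between the lines with trastuzumab + pertuzumab, the sterol minus fatty acid difference was −0.10 by medians and 0.0004 by means. In each of the 7 comparisons this difference took the other sign under at least 1 alternative (from −0.025 to 0.065 with pertuzumab), so none has a settled direction. The other 149 values of the main comparisons, among them most sterol minus fatty acid differences, moved by less than 0.1 (medians) or by no more than 1.5 times (counts). Several medians were themselves below 0.1, so a sign could change within this tolerance. The sterol median between the lines with the combination went from −0.075 to 0.0129 by means. With the combination in CHO-K6, the sterol (0.025) and fatty acid (0.035) medians went to −0.055 and −0.0125 against the other antibody arrays. The alternatives here were quantile normalization, the signal limit, the mean of all clusters, the series matrix table, means for medians, the other antibody arrays as reference and the array set without pertuzumab. In that last set, 20 of 28 genes stood apart by line (11 higher and 9 lower in CHO-K6), beside 14 with all arrays (10 and 4). The shares of all genes rose as well, from 17.5% to 22.7% higher and from 24.1% to 33.3% lower. Leaving out an array can only keep or raise such counts. No paired analysis was possible because each condition had 1 array and so no replicate numbers to pair. No array was left out of the single comparisons for the same reason, and no error can be given. Signal over background is unknown, as the tables hold no detection values, so dim genes such as Srebf1, Fads2 and Tm7sf2 are the least certain.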
